A study of Rattus norvegicus with 24 samples.

Results

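Prkcd, Ptpn3, Tcf7l2 and Slc17a6 are 4 genes that mark relay neurons of the thalamus in rodents, and they were followed here across 6 dissected regions of the rat brain after MK-801. They were chosen because earlier results of these data had shown lower midbrain values after MK-801, so their midbrain values are given as a description and carry no test. A probe counted as a member when its gene name on the array, or the current rat symbol for it, was one of the 4 names. That rule found 4 probes of 3 genes, Prkcd, Ptpn3 and Slc17a6, among 41012 probes. No probe carried the name Tcf7l2. A transcript named LOC683733, which the array annotation describes as similar to transcription factor 7-like 2 and which lies between Vti1a and Habp2 as Tcf7l2 does in RefSeq, had 4 probes and stands for Tcf7l2 below. Of these 8 probes, 7 passed the filter on dim probes, and the 4 genes were among 23468 measured.

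The animals were 9 male Wistar rats, 10 weeks old. Per the labels, 3 received saline and 6 received MK-801, an NMDA receptor blocker that enters the channel once it has opened, by intraperitoneal injection at 0.08 mg/kg (low dose) or 0.16 mg/kg (high dose), and brains were taken after 40 min. Midbrain, hypothalamus, amygdala, hippocampus, cerebral cortex and ventral striatum were cut out, and no separate thalamus is named among the pieces. In each region RNA of each dose was hybridised against saline RNA on 2 two-colour arrays with the dyes exchanged, 24 arrays in all. Which rat an array came from, and whether rats were pooled, is not in the labels, so each dye swap counted as 1 value, and the doses share the saline group as control.

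The thalamus passes sensory, motor and arousal signals to the cortex through glutamatergic relay neurons. Slc17a6 encodes the vesicular glutamate transporter VGLUT2, which loads glutamate into synaptic vesicles of these cells and of many neurons of the hypothalamus and midbrain. Tcf7l2 encodes a transcription factor of the Wnt and beta-catenin pathway that is made at high level in the thalamus and habenula and helps set the identity of their neurons. Prkcd encodes protein kinase C delta, which responds to diacylglycerol and is strong in thalamic relay neurons. Outside the thalamus it is also known from neurons of the central amygdala. Ptpn3 encodes a tyrosine phosphatase with a FERM and a PDZ domain and is abundant in the thalamus.

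The probe sequences fix what was measured, and matter here because probes of one gene did not read alike. The brightest probe of each gene and the dim probe of Ptpn3 are shown, as printed in the array files, with positions in rat build rn3 per the file headers. Each is 60 bases long. The Prkcd probe lies at chr16:5954514-5954573 on the minus strand and the Slc17a6 probe at chr1:101543939-101543998 on the plus strand, and each was spotted 10 times on an array. The Ptpn3 probe used for the results lies at chr5:75112568-75112627 on the minus strand. The dim Ptpn3 probe maps to a stretch from 75188275 to 75193824 on the same chromosome and strand, longer than the probe itself. The brightest Tcf7l2 probe lies at chr1:262436958-262437017 on the plus strand, and the other probes of that transcript lie upstream from position 262411286. Exon and untranslated region annotation of that build was not used here.
Prkcd: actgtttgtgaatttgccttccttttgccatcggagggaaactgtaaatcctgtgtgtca
Ptpn3: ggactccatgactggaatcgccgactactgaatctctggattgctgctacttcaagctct
Ptpn3, dim probe: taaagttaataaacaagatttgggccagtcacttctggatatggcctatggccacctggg
Tcf7l2 (LOC683733): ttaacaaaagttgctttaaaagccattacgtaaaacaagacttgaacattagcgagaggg
Slc17a6: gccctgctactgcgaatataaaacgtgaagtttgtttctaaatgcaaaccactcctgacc

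On an array, 55.2% to 78.5% of probes were well above background with both dyes. The first high dose array of the midbrain stood apart: the SD of its log2 ratios was 0.246, against 0.138 to 0.207 on the other 23 arrays. Over all genes the 2 arrays of the midbrain dye swaps, turned to MK-801 over saline, correlated negatively (r = -0.483 at the high dose over 22960 genes and -0.45 at the low dose over 22846), so that single arrays carried dye effects that a dye swap averages. None of the 8 probes was called saturated on any of the 24 arrays. Each region had its own slide, so region and slide cannot be told apart in the levels below.

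In saline RNA the brightest probes of the 4 genes were highest in the hypothalamus, not in the midbrain. Levels are log2 intensities of the saline channel after normalization, over 4 arrays a region, and can be compared between regions for 1 probe but not between probes. The arrays of a region may share saline RNA, so their ranges do not measure spread between animals. Prkcd had a mean of 15.86 in the hypothalamus, with arrays between 15.75 and 15.96. It followed at 12.71 in the midbrain (12.64 to 12.80) and 12.35 in the ventral striatum (12.26 to 12.51). Amygdala stood at 11.62 (11.52 to 11.82), cortex at 10.92 (10.81 to 11.08) and hippocampus at 10.28 (10.14 to 10.42). No 2 neighbours in that order overlapped over their arrays, although midbrain and ventral striatum lay 0.36 apart.

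Ptpn3 averaged 13.54 in the hypothalamus over the 3 arrays with a usable spot (13.43 to 13.63). Hippocampus was next at 11.27 (11.08 to 11.43), then midbrain at 10.44 (10.26 to 10.56). Amygdala at 10.24 and cortex at 10.21 overlapped the midbrain, and the ventral striatum was lowest at 7.38 (7.15 to 7.59). Thus the hypothalamus stood alone at the top and the ventral striatum alone at the bottom, with midbrain, amygdala and cortex not separated. Tcf7l2 averaged 12.91 in the hypothalamus (12.79 to 13.05) and 10.78 in the midbrain (10.27 to 11.25), where the saline channel of the high dose arrays read 10.27 and 10.48 and that of the low dose arrays 11.25 and 11.12. The other 4 regions lay between 7.97 and 8.58 and overlapped one another from amygdala down to cortex.

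Slc17a6 was high in both the hypothalamus at 14.71 (14.33 to 14.86) and the midbrain at 13.76 (13.64 to 13.85). Amygdala followed at 10.85 (10.82 to 10.87) and hippocampus at 10.25 (10.02 to 10.46). Cortex and ventral striatum were lowest, at 8.88 (8.74 to 9.11) and 8.50 (8.32 to 8.69), without overlap. The excess of the hypothalamus over the midbrain was 8.86-fold for Prkcd, 8.55-fold for Ptpn3, 4.39-fold for Tcf7l2 and 1.93-fold for Slc17a6. Without normalization between arrays these ratios were 6.11, 5.89, 2.91 and 1.35, and with the scanner's processed signals scaled to the 75th percentile they were 9.22, 8.53, 4.39 and 1.97, in the same direction each time. The Tcf7l2 ratio is that of its brightest probe. Of its 3 other probes, 1 read 2.71-fold higher in the hypothalamus than in the midbrain, 1 read 1.54-fold higher with overlapping arrays, and 1 read 7.02 in the hypothalamus and 7.18 in the midbrain, also overlapping. The midbrain minus the hippocampus for Ptpn3, -0.83, was -0.08 without normalization between arrays.

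**Figure D1:**
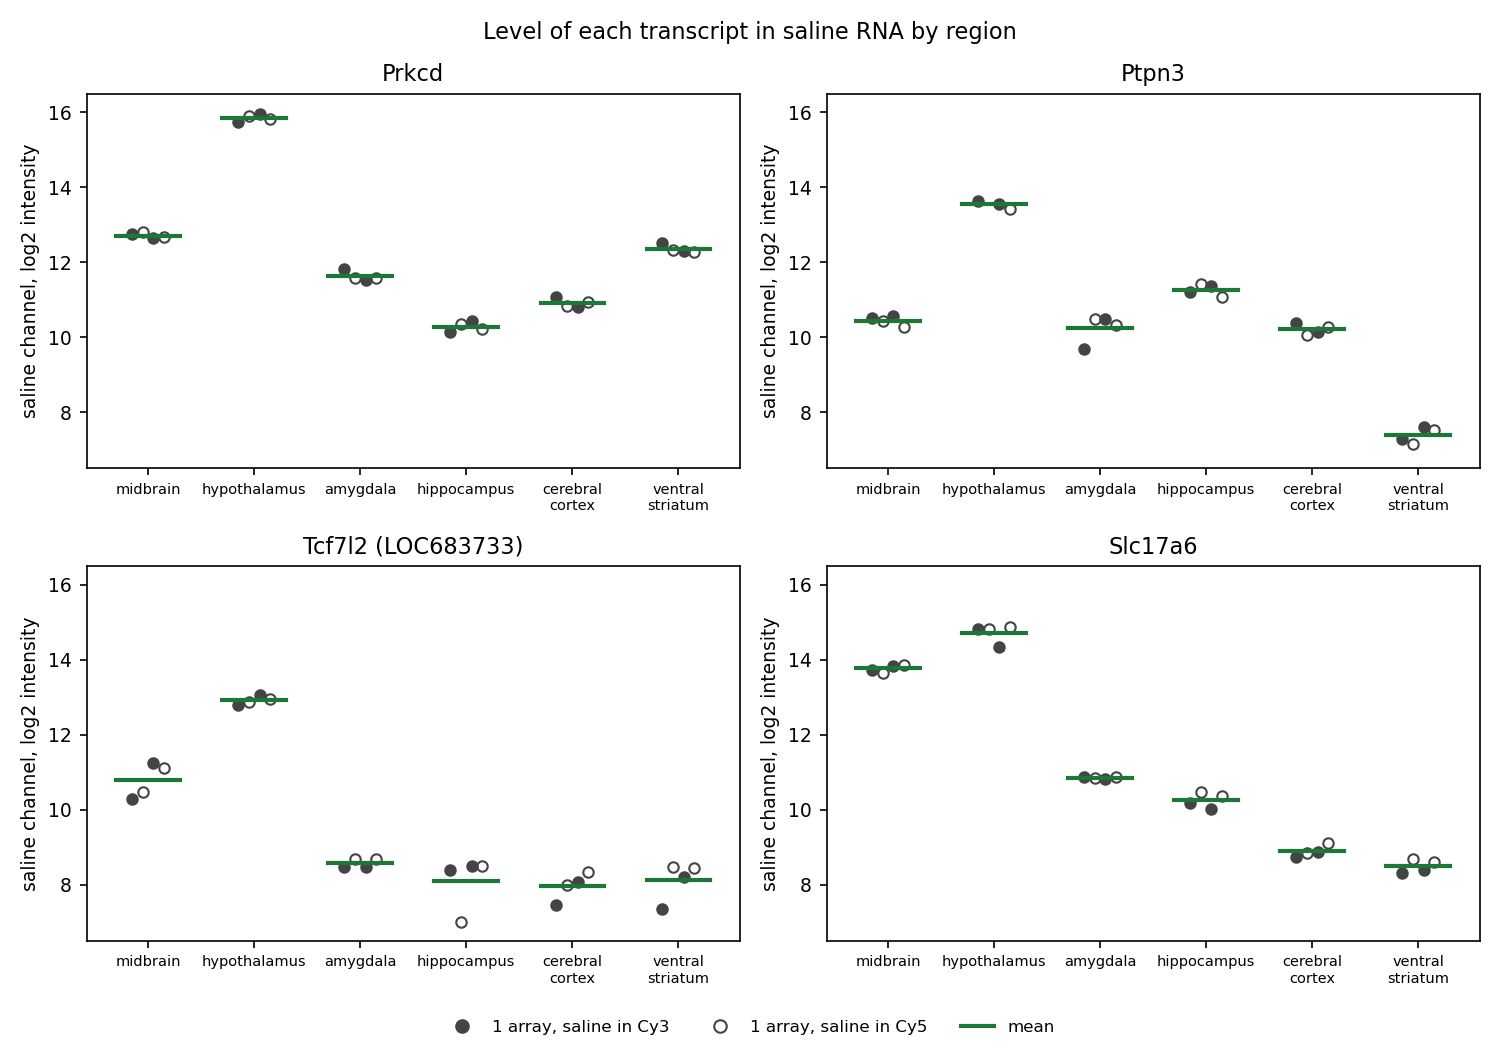
Log2 intensity of the saline channel for the brightest probe of Prkcd, Ptpn3, Tcf7l2 (LOC683733) and Slc17a6 in 6 regions, with 1 point an array (filled where saline was in Cy3, open where in Cy5) and a bar at the mean. The hypothalamus is the highest region in each panel, with means of 15.86, 13.54, 12.91 and 14.71.

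The levels of other markers place this pattern among the dissected pieces. Of 22 genes listed as thalamic relay markers, 16 were measured, the 4 above among them. Of the other 12, 9 were highest in the hypothalamus and 1, Calb2, in the midbrain, while 19% of all genes were highest in the hypothalamus. Hypothalamus first and midbrain second, the order of Prkcd, Tcf7l2 and Slc17a6, held for 5.94% of all genes. Rgs16, Shox2 and Amotl1 of the list were too dim. Ramp3, a receptor accessory protein, read 12.37 in the hypothalamus and 9.23 in the midbrain. Lef1, the other Wnt pathway factor of the list, read 10.10 and 7.85, and Ntng1, netrin G1, read 10.70 and 8.65. The labelled hypothalamus thus held thalamic markers at higher level than the labelled midbrain did. The same piece had the highest level of the hypothalamic peptide genes Pmch (13.07, midbrain 9.94), Trh (10.47, midbrain 7.03) and Oxt (9.51, midbrain 6.83), but not of Hcrt, Pomc, Agrp, Ghrh or Avp. All 3 measured habenula markers were also highest there. The midbrain was set apart by Th at 13.82 (hypothalamus 9.10), the first enzyme of dopamine synthesis, and by Slc18a2, the vesicular monoamine transporter, at 13.19 (hypothalamus 8.40).

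In the midbrain, MK-801 values of the 4 genes lay below those of saline at both doses, most for Prkcd and Ptpn3. As log2 of MK-801 over saline, Prkcd read -0.85 and -0.93 on the high dose arrays and -1.12 and -1.23 on the low dose arrays. The low dose arrays were thus the lower ones, without overlap with the high dose. The dye swap means were -0.89 and -1.17, or 54% and 44.3% of saline. On the same arrays the 10 spots of the Prkcd probe had an SD of 0.08 to 0.10, so that reading error of the spots was small beside these values.

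Ptpn3 read -1.07 and -0.68 at the high dose and -1.16 and -0.90 at the low dose, with means of -0.87 and -1.03, or 54.6% and 48.9% of saline. Its arrays at the 2 doses overlapped, and on both dye swaps the array with MK-801 in Cy5 was the lower one. Tcf7l2 read -0.22 and -0.28 at the high dose and -0.35 and -0.47 at the low dose, with means of -0.25 and -0.41. Slc17a6 read -0.24 and -0.23 at the high dose and -0.17 at the low dose on both arrays, with means of -0.23 and -0.17. For Slc17a6 the high dose was the lower one, the reverse of the other 3 genes.

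All 16 of these array values were below 0, and 5.17% of all genes were below 0 on all 4 midbrain arrays. At 1.5-fold or more lower at both doses, a share of 0.0266% of all genes was counted, 6 of 22527, and Prkcd and Ptpn3 were 2 of the 6. Tcf7l2 and Slc17a6 were not, and 0.0355% of all genes were as much higher. The values nearest that limit were -0.63 just inside and -0.584 just outside, taking for each gene the dose nearer to 0. The 6 genes numbered 11 without the first high dose array and between 4 and 8 without each of the other 3, and 19 with the scanner's own log ratios and 21 with the value table. Since the genes were chosen on these values, nothing is read from the counts. Other processing and leaving out an array placed Prkcd between -0.97 and -0.85 at the high dose and between -1.23 and -1.12 at the low dose.

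**Figure D2:**
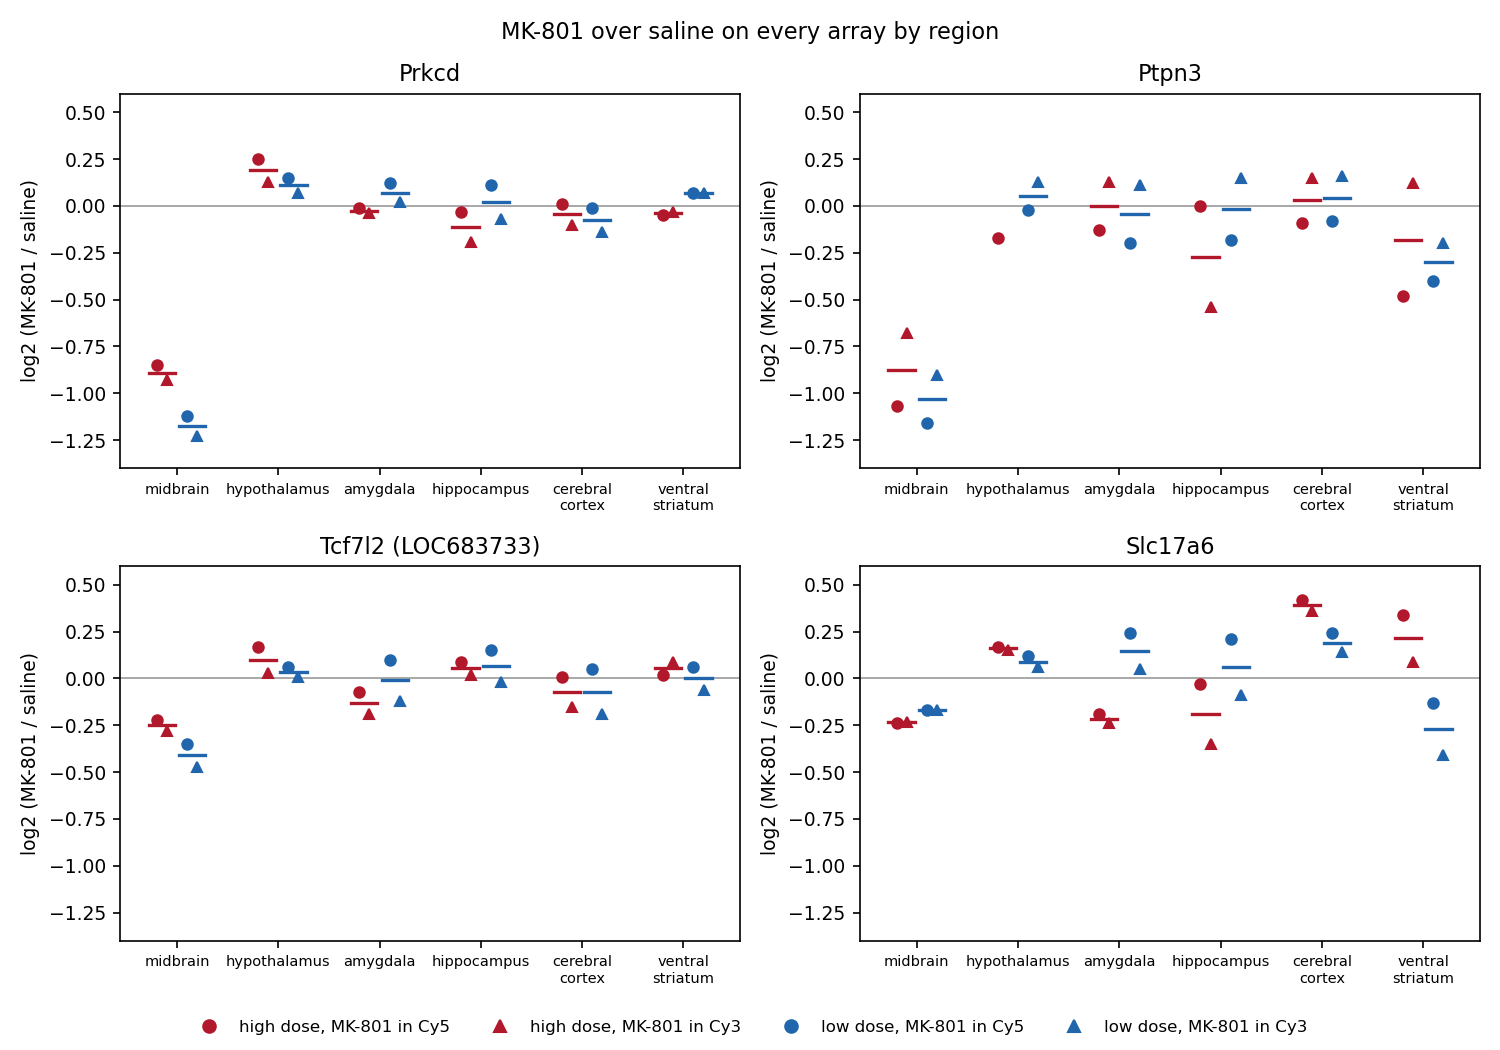
Log2 of MK-801 over saline on every array for the brightest probe of the 4 genes in 6 regions, high dose in red and low dose in blue, circles with MK-801 in Cy5 and triangles in Cy3, bars at dye swap means. Prkcd and Ptpn3 lie between -1.23 and -0.68 in the midbrain, and no array of the other 5 regions lies below -0.54 for any of the 4.

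Probes of one transcript differed in their midbrain values. Besides the brightest Tcf7l2 probe, 3 others passed the filter. Their midbrain means at the high and low dose were -0.21 and -0.31, -0.17 and -0.25, and -0.04 and -0.18, so the probes shared a sign in their means but 1 of them had an array above 0. The dim Ptpn3 probe was well above background on 9 of 24 arrays, 1 of them in the midbrain. It read 6.42 in midbrain saline and 0.07 and 0.15 as the midbrain ratios, unlike the bright probe. Its saline levels over the 6 regions lay between 6.42 and 6.83 with overlapping arrays, so it gave no regional pattern at this signal.

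Outside the midbrain no change of the 4 genes passed the test. With 1 value a region, the mean of both doses, limma with Benjamini-Hochberg adjustment over 22785 genes called 2.21% of genes at an adjusted p under 0.05, 1.04% as lower, and 0 of the 4 in either direction. At an unadjusted p under 0.05 it had 12.6% of all genes and 1 of the 4, Ptpn3. Since the regions came from one set of rats, these p-values reflect how regions differ, not animals. Prkcd averaged 0.02 ± 0.08 (SD, n = 5 regions, limma adjusted p = 0.885), Ptpn3 -0.09 ± 0.12 (n = 4, 0.395), Tcf7l2 0.00 ± 0.07 (n = 5, 0.981) and Slc17a6 0.06 ± 0.15 (n = 5, 0.691). Ptpn3 has 4 regions because its hypothalamus spot was flagged as an outlier on 1 high dose array, which drops that dye swap. Adjusted p-values at the high dose alone, where 1.78% of genes were called, 0.864% as lower, and 0 of the 4, ran from 0.464 for Ptpn3 to 0.991 for Tcf7l2. At the low dose alone, where 1.97% were called, 0.999% as lower, and 0 of the 4, they ran from 0.702 for Prkcd to 0.981 for Tcf7l2. Without array number 4 of each region, the second low dose array, Ptpn3 was called over both doses (-0.16, limma adjusted p = 0.0358) and at the low dose (-0.18, 0.0383). Without array number 2, the second high dose array, it was called at the high dose (-0.17, 0.0472). Each of these leaves one dye orientation alone at a dose.

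By region, the 5 values of Prkcd over both doses ran from -0.06 in the cortex to 0.15 in the hypothalamus. In the hypothalamus, where its level was highest, Prkcd read 0.25 and 0.13 at the high dose and 0.15 and 0.07 at the low dose, above 0 on 4 of 4 arrays. By its brightest probe Tcf7l2 was above 0 there on 4 of 4 arrays as well, between 0.01 and 0.17. Each of the other Tcf7l2 probes had 2 hypothalamus arrays below 0. Slc17a6 was above 0 there on 4 of 4 arrays, between 0.06 and 0.17. Ptpn3 had 0.05 there at the low dose, with 1 of its 2 arrays below 0. In the amygdala, a known site of Prkcd neurons, Prkcd read -0.02 at the high and 0.07 at the low dose.

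Slc17a6 varied most between regions and doses outside the midbrain. In the cortex, where its level was near the bottom of its range, it read 0.42 and 0.36 at the high dose and 0.24 and 0.14 at the low dose. In the ventral striatum it read 0.34 and 0.09 at the high dose but -0.13 and -0.41 at the low dose, so the doses lay on opposite sides of 0. The amygdala did the reverse, with -0.19 and -0.24 at the high dose and 0.24 and 0.05 at the low dose. Within the scan day of cortex and ventral striatum it was called at the high dose (0.30, limma adjusted p = 0.0171, n = 2 regions), and within that of hippocampus and hypothalamus it was not. Ptpn3 was lowest outside the midbrain in the ventral striatum, with -0.48 and 0.12 at the high dose and -0.40 and -0.20 at the low dose, at a saline level of 7.38.

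Of the 12 other thalamic relay genes, 10 had midbrain values below 0 at both doses, against 31.3% of all genes, with medians of -0.12 at the high dose and -0.16 at the low dose against 0.00 and 0.00 for all genes. Below 0 on all 4 arrays were 6 of the 12, against 5.17% of all genes: Rora, Gbx2, Lef1, Ntng1, Foxp2 and Ramp3. Some of these had a low midbrain saline level, 7.25 for Gbx2, 7.43 for Rora and 7.85 for Lef1. Gbx2 read no higher there than in the hippocampus (7.24) or cortex (7.30), and Foxp2 was highest in the ventral striatum (11.81). Cacna1g and Zic1 changed sign with the dye. At 1.2-fold or more lower at both doses were 2 of the 12, Ramp3 with -0.35 and -0.44 and Ntng1 with -0.50 and -0.29, beside 0.36% of all genes. None of the 12 reached 1.5-fold lower. The highest over both doses were Calb2, the calcium buffer calretinin, with 0.01 and 0.06, and Tnnt1 with 0.21 and -0.14. Lef1, with -0.22 and -0.41, read close to Tcf7l2. The summed intensity of the 10 other relay genes besides Calb2 that had values on all midbrain and hypothalamus arrays was 3680 to 4220 in midbrain saline, 3600 to 3740 after the high dose and 3210 to 3240 after the low dose. In hypothalamus saline that sum was 10900 to 13700. Foxp2 was the brightest of the 10 in midbrain saline, at 10.69 (hypothalamus 10.63), so it weighs most in the midbrain sum. Plcb4 had no low dose hypothalamus value and is not in the sum. With Calb2 the midbrain sum was 37200 to 42500 in saline, 39100 to 42200 after the high dose and 37500 to 44000 after the low dose.

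**Figure D3:**
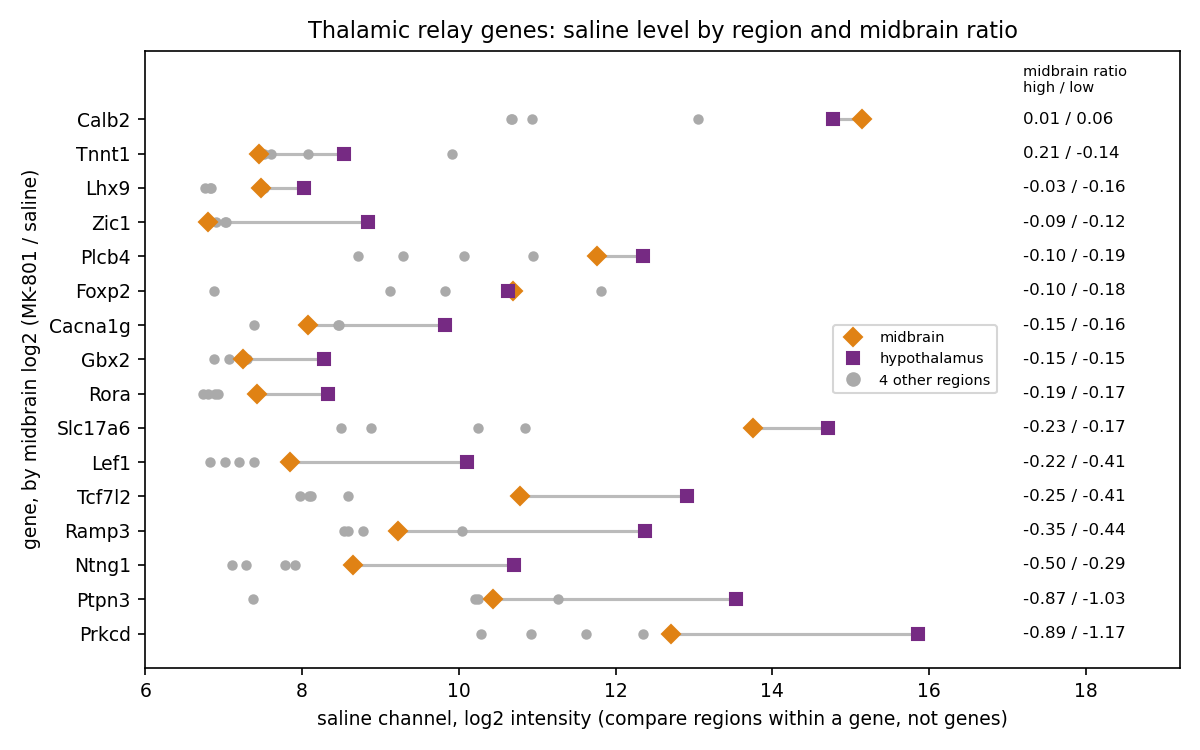
Saline level (log2 intensity, mean of the arrays of a region) of 16 thalamic relay genes in midbrain (orange), hypothalamus (purple) and 4 other regions (grey), ordered by the midbrain ratio over both doses. Midbrain log2 ratios at the high and low dose stand at the right, from -0.89 and -1.17 for Prkcd to 0.01 and 0.06 for Calb2.

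Markers of other tissue in the midbrain are given as values, without a test. Of 8 measured monoamine genes, 7 had values at both doses, with medians of 0.09 and 0.17. Below 0 at both doses were 0 of the 7, against 31.3% of all genes. The serotonin genes were the highest: Tph2, which makes serotonin in neurons, read 0.77 and 1.42, and Slc6a4, the serotonin transporter, read 0.67 and 0.90. Those were above saline on 4 of 4 arrays each. Th read 0.14 and 0.18, with the arrays of a dye swap on either side of 0, and Slc18a2 read 0.05 and 0.17. Myelinating oligodendrocyte genes had medians of 0.19 and 0.20 over 8 genes. At 1.2-fold or more higher at both doses was 1 of the 8, Mbp, beside 0.249% of all genes. Habenula genes had medians of -0.10 and -0.02 over 3 genes, since Pou4f1 and Gpr151 were too dim. In the hypothalamus, Th read -0.96 and -0.93 and Pmch -2.96 and -1.76. Crh, a stress peptide of the amygdala list, read -0.52 and -0.45 in the midbrain, and Sox9 of the astrocyte list -0.35 and -0.33. Sox9 was lower outside the midbrain too, with a mean of -0.28 over both doses (limma adjusted p = 0.00047). Over both doses the midbrain medians of other lists were 0.16 for microglia, 0.02 for newly formed oligodendrocytes and for the central amygdala, 0.00 for choroid plexus and brainstem GABA neurons, -0.01 for astrocytes, -0.05 for cerebellum and -0.07 for cortical and hippocampal projection neurons. For the hypothalamic peptide genes the midbrain median was -0.04.

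Each region of each treatment was a separate dissected piece, with 1 dye swap a dose against saline, so the make-up of the pieces and an effect of MK-801 cannot be told apart in these arrays. In such bulk RNA, fewer cells of a type and less RNA per cell cannot be told apart either. The part of thalamic tissue at the border of the midbrain piece in the values of Prkcd and Ptpn3 was not tested.

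**Figure D4:**
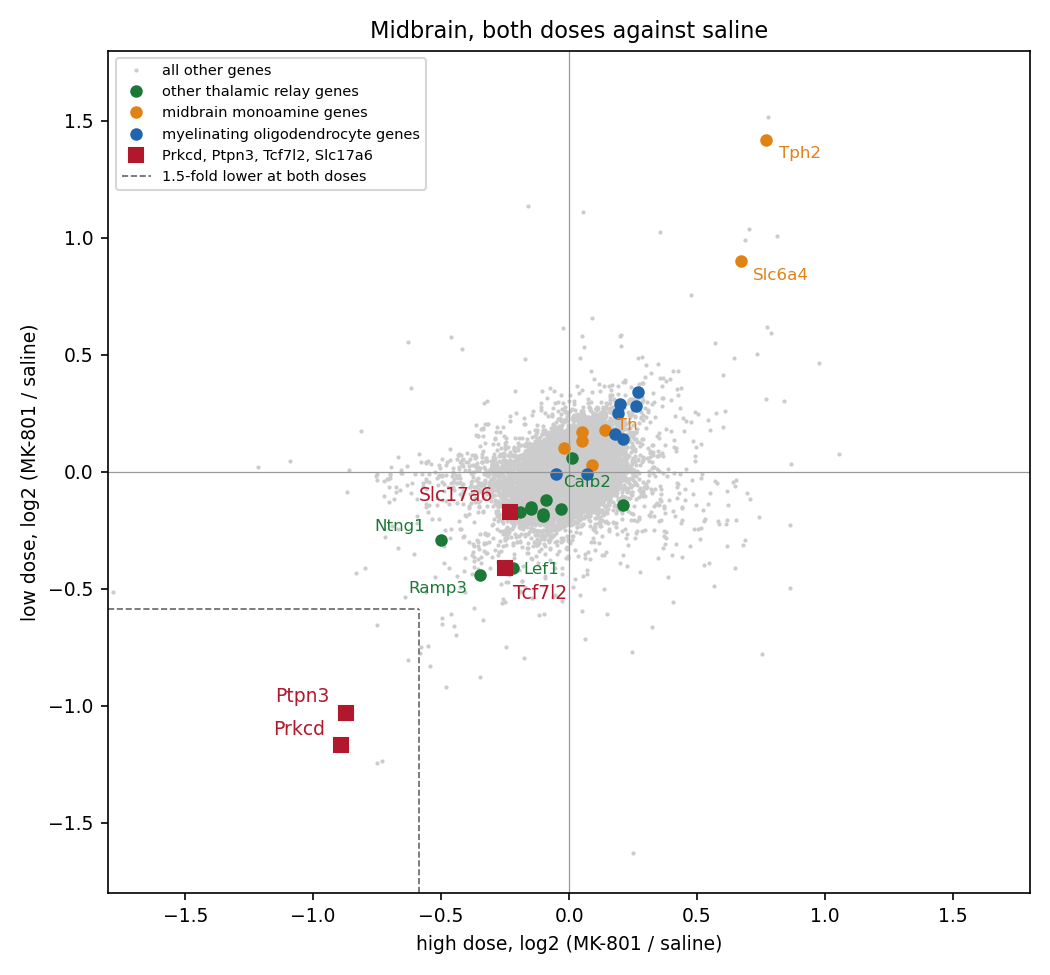
Midbrain log2 of MK-801 over saline at the high dose (x) and low dose (y) for all genes (grey), the 4 genes (red squares), the other thalamic relay (green), monoamine (orange) and myelinating oligodendrocyte genes (blue), with 2 grey genes outside the axes. Prkcd and Ptpn3 lie inside the dashed corner for 1.5-fold lower at both doses, and Tph2 and Slc6a4 lie at the opposite side.

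Among all other genes, lower midbrain values were more frequent where the saline level was high in the hypothalamus, though not for every such gene. Genes were binned, after the values of the 4 genes had been seen, by the saline level of the hypothalamus minus the mean of amygdala, hippocampus, cortex and ventral striatum. The midbrain level itself does not enter that difference, and the 4 genes were left out. Of 10782 genes with a difference under 0, 0.232% were 1.2-fold or more lower in the midbrain at both doses and 0.204% were higher. From 0 to 1 log2 unit they were 0.228% and 0.274% of 10950 genes. Between 1 and 2 log2 units the shares were 1.19% lower and 0.447% higher of 671 genes. Between 2 and 3 they were 8.54% and 1.22% of 82 genes. At 3 or more, 14 of 37 genes were lower, 37.8%, and 0 were higher. The medians of those 37 genes were -0.19 at the high dose and -0.25 at the low dose in the midbrain, and 0.06 over both doses in the hypothalamus. Of the 79 other genes that were 1.2-fold or more lower in the midbrain at both doses, 30 were highest in the hypothalamus, 38%, against 19% of all genes. The 4 other genes at 1.5-fold or more lower were transcripts without a gene symbol, and each of them was highest in the hypothalamus. Of 8 measured hypothalamic peptide genes, 0 were 1.2-fold or more lower in the midbrain at both doses. As 0.36% of all genes were that low, few were to be counted among 8. The 3 of them that were highest in the hypothalamus read 0.04 and -0.11 (Pmch), 0.00 and 0.24 (Trh) and 0.04 and -0.01 (Oxt) in the midbrain. Trh and Oxt were dim in midbrain saline, at 7.03 and 6.83, where a fall could hardly show. No test was made of the relation between midbrain values and hypothalamus level.

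**Figure D5:**
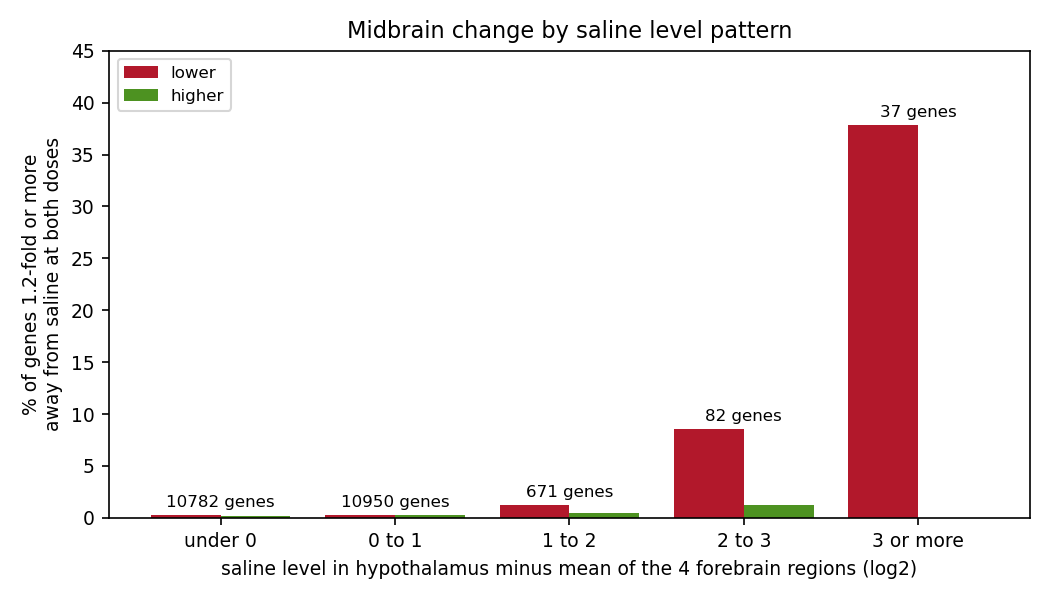
Share of genes that were 1.2-fold or more lower (red) or higher (green) than saline in the midbrain at both doses, by the saline level of the hypothalamus minus the mean of 4 forebrain regions in log2 units, the 4 genes left out. The lower share is 0.232% of 10782 genes in the first group and 37.8% of 37 genes in the last.

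In the families of the 4 genes, no other measured gene passed 1.2-fold at both doses in the midbrain, as 0.36% of all genes did downward and 0.249% upward, so few were to be counted in lists of this size. Of the other 8 protein kinase C genes, all measured, 0 passed, with medians of -0.03 and 0.00. Prkcb read -0.07 and -0.01, and the highest over both doses were Prkcz with 0.06 and 0.11 and Prkcq with -0.06 and 0.17. Of 11 genes of diacylglycerol signalling and of protein kinase C substrates, 0 passed 1.2-fold in either direction. Plcb4, a phospholipase C that the thalamic list holds too, was lowest with -0.10 and -0.19, and Prkd2 was highest with 0.06 and 0.08.

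Among 11 other non-receptor tyrosine phosphatases, 0 passed 1.2-fold at both doses. Ptpn4, the closest relative of Ptpn3 by its FERM and PDZ domains, was the lowest with -0.20 and -0.16, and Ptpn11, the adaptor-bound phosphatase SHP2, was highest with 0.11 and 0.11. Slc17a7, the vesicular glutamate transporter VGLUT1 of cortical neurons, read 0.00 and -0.05 in the midbrain, and Slc17a8 was too dim. Of 11 other genes of the Wnt pathway, Lef1 was the lowest, then Tle1 with -0.12 and -0.08. Axin2, a target of the pathway, was highest with 0.13 and 0.03, and 0 of the 11 passed 1.2-fold at both doses. Over the other 5 regions and both doses, limma called 0 of 9 protein kinase C, 0 of 12 phosphatase and 0 of 12 Wnt pathway genes. As it called 2.21% of all genes, few calls were to be counted in lists of this size. At an unadjusted p under 0.05 there were 0, 1 and 0, against 12.6% of all genes. Limma also called 0 of the 16 thalamic relay genes, with 5 at an unadjusted p under 0.05. Of those 5, Ramp3 (0.10), Tnnt1 (0.13) and Lhx9 (0.07) were above 0, and Ptpn3 (-0.09) and Calb2 (-0.06) below.

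Likeness of other genes to each of the 4 was Pearson's r over the 12 regional values (6 regions at 2 doses) among genes whose values had an SD of at least 0.2. It is a description with no test, since the doses share the saline group. The 12 values include the midbrain values by which the 4 were chosen, so genes like Prkcd, Ptpn3 or Tcf7l2 are low in the midbrain by construction. For Prkcd, Gabrd, a subunit of extrasynaptic GABA receptors, was among the 3 highest of 374 genes (r = 0.96). It read -0.58 and -0.75 in the midbrain, and the other 2 had no gene symbol. Gabrd was also among the 3 highest for Ptpn3 (r = 0.96, over 11 values), again beside 2 transcripts without a symbol. For Tcf7l2 the 3 were Cidea (r = 0.93), a transcript without a symbol and Prkcd (r = 0.91). For Slc17a6 the highest was Crh, at r = 0.67, with Jun at 0.56 and a transcript without a symbol between them. Among the 4 genes themselves, Prkcd and Ptpn3 had r = 0.94 over the 11 shared values and 0.15 without the midbrain. In the saline levels over 6 regions, Tcf7l2 and Slc17a6 were the most alike (r = 0.94) and Prkcd and Ptpn3 the least (r = 0.50). The mean saline profile of the 4 was matched most closely, among 7640 genes, by LOC501231 (r = 0.992) and Ntng1 (r = 0.991). Ddah1, an enzyme that clears inhibitors of nitric oxide synthesis, followed at 0.986, and 2 transcripts without a symbol had 0.987 and 0.985.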

How the data were processed

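The members and the gene lists were chosen with earlier results of these data known. Per the file headers, arrays were two-colour Agilent rat arrays of 45018 spots (43379 non-control), read with Agilent Feature Extraction 9.5.3.1 per the submitters' processing notes. The deposited scanner files give intensity values for each dye, and the deposited value table gives log10 ratios of Cy5 over Cy3, within 0.00413 of the log10 ratio of the scanner's processed signals. The scanner's own log ratio is 0 for some dim spots where the table is not. Values came from the mean and median background signals with normexp background correction (offset 50), loess within arrays, and Aquantile between arrays for levels (limma 3.58.1, R 4.3.3). Spots flagged as outliers were left out, spots of 1 probe averaged, and ratios turned to log2 of MK-801 over saline by the dyes in the labels. Gene names were updated through RefSeq accessions, symbols and synonyms (GRCr8, names only). A probe passed when the scanner called it well above background for Cy3 and Cy5 on 12 or more of 24 arrays, and the brightest probe stood for a gene.

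The 5 regions other than midbrain were tested against 0 with limma (lmFit and eBayes), 1 dye swap a value, at least 4 regions, adjusted p under 0.05. Runs within a scan day had 2 regions. On simulated data for the both-dose comparison, with 21115 genes, 100% of 50 genes shifted by 0.3 log2 units were called, and 0.043% of unshifted ones. For the high dose (21875 genes) and the low dose (22178 genes), 88% and 80% of such genes were called. Simulated regions were drawn independently, while the real ones came from one set of rats. Only genes with values in all 5 regions entered, so Ptpn3 did not over both doses or at the high dose. These rates are averages over genes and need not hold for one with a wide spread, such as Slc17a6 (SD 0.26 at the high dose). Named genes were the 4 members, the 2 lowest and 2 highest midbrain values of a list described, the 3 genes most like each member and the 5 most like their saline profile; other names were chosen after their values were seen, and 1 gene that the rule names is not reported here. Array numbers 1 and 3 carry MK-801 in Cy5 and 2 and 4 in Cy3. They name dye orientations and pair no animals. The number of arrays limits the precision.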

Additional observations from a re-analysis of the deposited data

Results flagged for a closer look

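Some values of the 4 genes stood apart within their group of samples, and some pointed in opposite directions in 2 regions. Of 36 groups of 4 or 5 values checked, chance alone sets a sample apart in about 1 in 20. At the low dose the ventral striatum lay far below the other 4 regions outside the midbrain for Ptpn3 (-0.30) and Slc17a6 (-0.27). In saline RNA, Tcf7l2 read 6.99 on the second high dose array of the hippocampus, against 8.38 to 8.50 on the others, and Slc17a6 read 14.33 on the first low dose array of the hypothalamus, against 14.82 to 14.86.

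By their brightest probes, Prkcd, Tcf7l2 and Slc17a6 were below 0 on all 4 midbrain arrays and above 0 on all 4 hypothalamus arrays. Their hypothalamus means were 0.15, 0.07 and 0.12. The genes were chosen for low midbrain values, so the midbrain side was set by that choice. The share of all genes with both signs is not given here. Each of the other Tcf7l2 probes had 2 hypothalamus arrays below 0. Slc17a6 was also above 0 on all 4 cortex arrays, with a mean of 0.29. These differences between regions were not tested.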

How the results depend on the processing

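By their brightest probes, the 4 genes were highest in the hypothalamus in saline RNA under both other scalings, and their midbrain values kept their sign at both doses under each alternative run. The median of the 4 in the midbrain (-0.64) was -0.69 to -0.59 under other processing and -0.66 to -0.60 without each replicate array number. That of the 12 other relay genes (-0.14) was -0.19 with scanner log ratios, -0.19 with the value table and -0.18 without loess, and -0.18 to -0.13 without each array number. Those below 0 at both doses (10 of 12) were 8 to 10 under alternatives chosen after seeing the data. Genes at 1.5-fold lower in the midbrain (6) were 81 at 1.2-fold, 0 at 2-fold, 19 with scanner log ratios, 21 with the value table, and 4 to 11 without each array number, which was added after seeing the data.

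In the 5 other regions, genes called by limma over both doses (503) were 243 with scanner log ratios, 236 with the value table, 306 without cortex, 269 within the scan day of cortex and ventral striatum, 71 within that of hippocampus and hypothalamus, and 2749 to 3580 without each array number, where a dose is left with 1 dye orientation. At the high dose (412) they were 208, 202, 251 without amygdala, 244 without cortex, 88 within the hippocampus and hypothalamus day, and 5364 to 6063 without each array number. At the low dose (458) they were 169, 160, 249 without ventral striatum, 118 in the cortex and ventral striatum day, 211 in the other, and 5663 to 6556 without each array number. With the array number, the dye orientation, as a replicate block on single arrays, 1061 genes were called over both doses, 628 at the high and 670 at the low dose, and none of the 4 genes was, with Ptpn3 at -0.08 over both doses (adjusted p = 0.443). The causes of these shifts were not tested beyond what each setting removes. Midbrain and amygdala shared a scan day, so within it no second region was left to test. The value of Tcf7l2 moved to -0.17 and -0.29 with the mean of its 4 probes. Ptpn3 without arrays of one number and Slc17a6 within a scan day crossed the threshold, as given above, and no other call on the 4 genes changed. Signal limits the dim Ptpn3 probe, well above background on 9 of 24 arrays, and 2 Tcf7l2 probes, on 13 and 16.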
